A study of Mus musculus with 39 samples.

Results

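Messenger RNA held on ribosomes was compared with the total polyadenylated RNA of granule cell progenitors isolated from the early postnatal mouse cerebellum. Granule cell progenitors divide in the outer layer of the cerebellum and give rise to its small excitatory neurons. The comparison uses 6 of the 39 libraries of the series, taken by their labels. Of these, 4 are libraries from translating ribosome affinity purification (TRAP) of progenitors isolated at postnatal day 7, called Math1 TRAP here. The mice carried the transgene Tg(Atoh1-Egfp-L10a), in which the promoter of Atoh1 (Math1) drives ribosomal protein L10a fused to EGFP, and RNA was recovered on beads with antibodies against GFP. The other 2 libraries, called DIV0 (day 0 in vitro), hold total RNA from progenitors of C57Bl/6J mice at postnatal day 6 to 7, set aside straight after isolation. The labels give C57Bl/6J as the strain of both groups, name no genotype for the DIV0 mice and give no treatment for either group. Mouse line, preparation, RNA fraction and any batch change together between the groups and cannot be told apart.

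TRAP collects messages attached to tagged ribosomes, so it is meant to recover RNA of the cells in which the promoter is active, and of that RNA the part loaded with ribosomes. Total RNA also holds nuclear noncoding RNA and the RNA of every other cell in the preparation. Atoh1 is the proneural transcription factor of dividing granule progenitors, kept on by Sonic hedgehog from Purkinje cells, and it is switched off when the cells leave the cell cycle. For comparison, 15 TRAP libraries from whole cerebellum of Tg(NeuroD1-Egfp-L10a) mice at postnatal day 7, 12 and 21 (5 at each age) were set against 3 inputs of total cerebellar RNA (1 at each age), with age in the model. Neurod1 is a transcription factor of differentiating granule cells. These 18 libraries share no library with the first comparison, but their starting material was whole tissue, not isolated cells.

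Total counts were 12084136 to 29970095 in the Math1 TRAP libraries and 15943645 and 23025792 in the DIV0 libraries. The 2 DIV0 libraries differed by little more than counting noise, with a chi-square per gene of 1.45 over 14849 genes, where pure counting noise gives 1. Replicate pairs of 3 cultured groups of the series (DIV2 DMSO, DIV5 DMSO and DIV5 UNC1999) gave 4.64 to 7.63. The Math1 TRAP libraries fell into the pairs 1 and 2 (chi-square per gene 11.95) and 3 and 4 (4.23), with 25.1 to 33.4 across the pairs. The labels do not tie replicates to separate animals, so p-values measure the spread between these libraries only, which may be technical.

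Levels are CPM (counts per 1000000 counts of a library), with library totals adjusted by TMM, a method that assumes most genes do not change, over the 24 libraries of both comparisons. A log2 fold change is Math1 TRAP against DIV0, ± its standard error (SE), and a gene was called at an adjusted p under 0.05 (edgeR quasi-likelihood test, adjusted over all genes tested). Of 14804 genes tested 4922 were higher in Math1 TRAP (33.2%) and 4940 lower (33.4%), so 66.6% of all genes were called. With a fold of at least 2 as a second condition, 1868 were higher (12.6%) and 2870 lower (19.4%). In 39.1% of genes every Math1 TRAP library lay above both DIV0 libraries, and in 38.4% every one lay below. The 2 groups thus differed over most of the transcriptome, and a gene list is read against these shares. The split depends on the scaling: 49.9% of the calls were higher with TMM and 37.9% with library size only, under which the median over all genes shifted by -0.21. With the 2 DIV0 libraries summed to 1, an alternative added after the data were seen, 7305 genes were called, 3688 of them higher.

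The gene of the transgene's promoter and the tagged protein's gene were both far higher in Math1 TRAP. Atoh1 (chromosome 6, 64729125 to 64731245, GRCm38) was at 964, 1359, 587 and 665 CPM in the 4 Math1 TRAP libraries and at 43.3 and 42.6 CPM in DIV0. All 4 lay above both DIV0 libraries, libraries 1 and 2 highest, and Atoh1 rose by a log2 fold change of 4.34 ± 0.36 (adjusted p = 2.05e-05). Rpl10a, which encodes L10a itself (chromosome 17, 28328471 to 28331033), was at 1727, 1961, 1081 and 1186 CPM against 221 and 234 CPM, a log2 fold change of 2.67 ± 0.25 (adjusted p = 3.43e-05). Again no library overlapped and libraries 1 and 2 were the highest. In the Neurod1 line Rpl10a was higher than in input by 1.55 ± 0.16 and Neurod1, its promoter gene, by 0.81 ± 0.08, while Atoh1 was not called (0.12 ± 0.27). Whether transcripts of the transgenes add to the counts of Atoh1, Rpl10a or Neurod1 was not tested. Neurod1 itself did not separate the progenitor groups, with 1070, 1098, 1262 and 1279 CPM in Math1 TRAP against 1188 and 1186 CPM in DIV0 (adjusted p = 0.672).

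**Figure D1:**
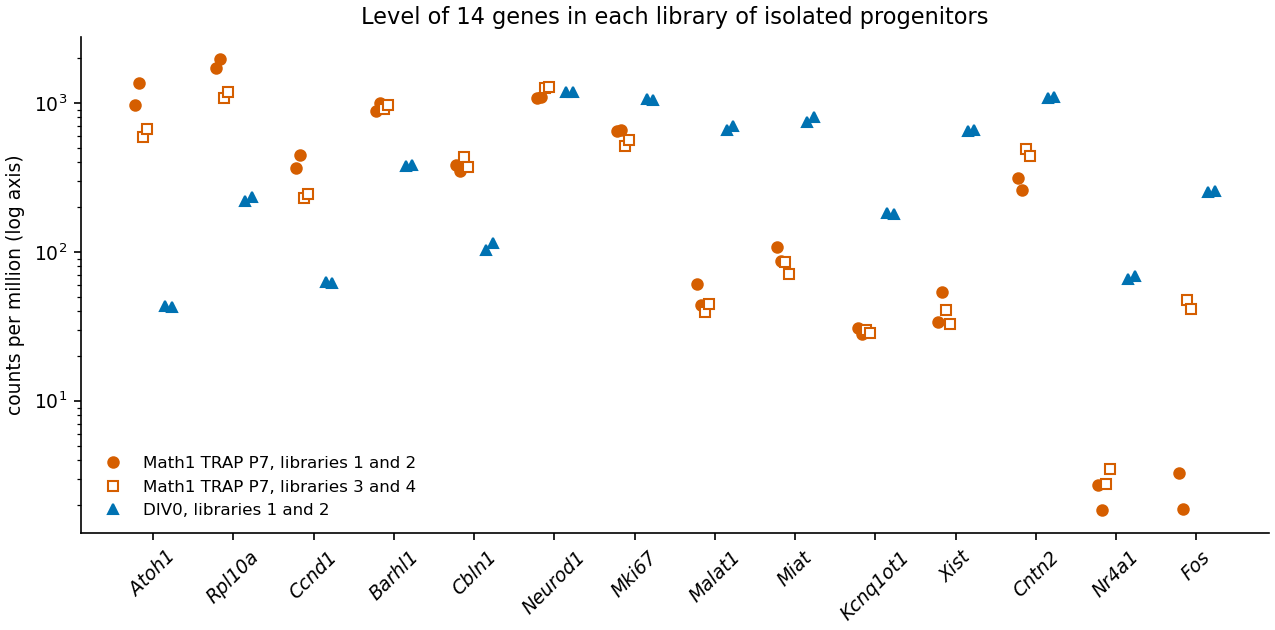
Level in CPM (log axis) of 14 genes in each of the 4 Math1 TRAP libraries (circles for 1 and 2, open squares for 3 and 4) and the 2 DIV0 libraries (triangles). Atoh1 and Rpl10a lie highest in Math1 TRAP libraries 1 and 2, Malat1 lies at 39.1 to 61.1 CPM against 662 and 704 CPM, and Fos differs between the Math1 TRAP pairs.

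Long noncoding RNAs known to stay in the nucleus or to come from imprinted loci were depleted from the ribosome-bound fraction. Of 25 measured members of that list 19 were lower and 3 higher, with a median log2 fold change of -1.73 against -0.03 for all genes tested. Malat1, an abundant nuclear speckle RNA, was at 61.1, 43.8, 39.1 and 44.7 CPM in Math1 TRAP and at 662 and 704 CPM in DIV0, a log2 fold change of -3.89 ± 0.15 (adjusted p = 1.12e-06). Miat, another nuclear RNA of neural cells, was at 108, 86.4, 85.6 and 71.3 CPM against 748 and 808 CPM. Kcnq1ot1, the imprinted transcript that silences its neighbours in cis, was at 30.9, 28.0, 29.9 and 28.4 CPM against 182 and 179 CPM. For all 3 the groups were far apart, and Neat1, the scaffold of paraspeckles, and Firre, which stays at its locus, fell by 3.34 and 2.60 on the log2 scale. Imprinted Meg3 fell by 2.08 ± 0.38 and varied more, with 25.3, 15.3, 10.6 and 6.37 CPM against 57.3 and 64.3 CPM. The members that were higher in Math1 TRAP were Peg13 (0.46), Pantr1 (0.83) and Mir124-2hg (1.27). With DIV0 replicate 1 left out, 1 of them was called. Across all long noncoding RNAs tested, 249 of 628 were lower and 89 higher, with a median of -0.60, while the 13992 protein-coding genes had a median of 0.00.

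Host transcripts of microRNAs spanned the same range, and the microRNAs that RefSeq places in the hosts are shown because a host of this kind is cut in the nucleus rather than translated. The table of microRNAs used here holds mature sequences on the forward strand within 3 of 6 hosts of the list (RefSeq, GRCm38.p6), written 5′ to 3′ with the seed, bases 2 to 8, in capitals. Their seeds all differ. Those of Mir17hg (chromosome 14, 115044390 to 115046728), Mir22hg (chromosome 11, 75461539 to 75466690) and Mir9-3hg (chromosome 7, 79500026 to 79534403) are, in that order:
mmu-miR-92a-1-5p: aGGUUGGGauuugucgcaaugcu
mmu-miR-92a-3p: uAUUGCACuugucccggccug
mmu-miR-22-5p: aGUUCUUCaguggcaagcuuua
mmu-miR-22-3p: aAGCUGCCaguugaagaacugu
mmu-miR-9-5p: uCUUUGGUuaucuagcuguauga
mmu-miR-9-3p: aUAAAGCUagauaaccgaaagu
The libraries measure the hosts, not these mature RNAs. Mir17hg was at 1.03, 0.728, 1.11 and 0.725 CPM in Math1 TRAP and 14.8 and 14.8 CPM in DIV0, and fell by 4.08 ± 0.22 on the log2 scale. Mir22hg was at 0.674, 0.554, 0.431 and 0.564 CPM against 6.94 and 6.95 CPM and fell by 3.65 ± 0.26. Both were low in every Math1 TRAP library, without overlap. Mir124a-1hg, host of a neuronal microRNA, was at 12.8, 7.69, 12.6 and 9.67 CPM against 137 and 143 CPM, a fall of 3.76 ± 0.18. Mir9-3hg stood apart from these, with 41.0, 42.9, 38.8 and 41.3 CPM against 46.7 and 48.8 CPM. Its log2 fold change was -0.26 ± 0.09 (adjusted p = 0.0255), and the call was lost with either DIV0 library left out (adjusted p = 0.136 and 0.165). Mir124-2hg rose by 1.27 ± 0.35, a call that was lost without DIV0 replicate 1 (adjusted p = 0.114).

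Noncoding hosts of small nucleolar RNAs, which carry them in introns and are often spliced and exported, did not move one way. Of 17 measured 6 were higher and 5 lower, with a median of 0.18. The calls for higher members numbered 2 or 3 with a DIV0 library left out and 3 with library size scaling. Gas5, a host known to be bound by ribosomes and degraded on them, was at 90.2, 92.8, 115 and 119 CPM in Math1 TRAP and 79.4 and 86.1 CPM in DIV0, above both but not called (0.29 ± 0.14, adjusted p = 0.0854). Snhg14, the long transcript over the Ube3a locus, fell by 3.06 ± 0.25 from 58.7 and 52.6 CPM to 5.55, 4.75, 10.2 and 7.57 CPM. Snhg3 rose by 1.33 and Snhg8 by 0.80.

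The listed messages of the cytosolic translation machinery that were measured were all higher in the ribosome-bound fraction. Every one of the 81 cytosolic ribosomal protein genes measured was higher and lay above both DIV0 libraries in all 4 Math1 TRAP libraries, with a median log2 fold change of 1.56 and a range of 0.88 to 2.67. The other 4 genes of the list were too low to be tested. The top of the range was Rpl10a, followed by Rpl36a at 456, 500, 417 and 474 CPM against 94.4 and 99.5 CPM (2.21 ± 0.10, adjusted p = 1.85e-06). Rpl23 was at 746, 798, 744 and 761 CPM against 230 and 234 CPM. Messages that begin with a terminal oligopyrimidine (TOP) tract, the element through which growth signals set the translation of ribosomal proteins, also encode elongation and initiation factors. All 20 measured genes of a list of such messages, which also holds Hnrnpa1 and Fau, were higher, with a median of 1.17. Naca, a subunit of the nascent chain complex, was at 749, 816, 721 and 741 CPM against 267 and 263 CPM, and Eif3k, a subunit of initiation factor eIF3, at 163, 169, 166 and 169 CPM against 67.8 and 68.1 CPM. Reads of ribosomal protein genes can be shared with pseudogenes and near copies such as Rpl36al, so values of single members are uncertain.

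Genes for mitochondrial proteins that are made in the cytosol behaved in the same direction. Of 78 mitochondrial ribosomal proteins 76 were higher, with a median of 1.11, and Mrpl1 and Mrps30 were not called. Of 80 nuclear genes of oxidative phosphorylation 77 were higher and 1 lower, with a median of 1.18. The lower member was Cox4i2, an isoform of a cytochrome c oxidase subunit outside the naming rule, at -2.89, and Ndufb9 and Cox6b2 were not called. Mrpl36 was at 31.5, 30.2, 32.0 and 28.0 CPM against 7.41 and 7.09 CPM, and Atp5j, a subunit of ATP synthase, at 225, 229, 214 and 221 CPM against 77.2 and 83.7 CPM. Components of mitochondrial import and membrane complexes were higher in 20 of 22 cases (median 0.98), among them Tomm6 of the outer membrane translocase (1.74 ± 0.10) and Timm13 of the intermembrane space (1.71 ± 0.11). Proteasome subunits were higher in 29 of 31 (median 0.82), led by Psmb4 at 320, 324, 267 and 255 CPM against 114 and 121 CPM. No library of either group overlapped for the genes given here with their values.

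**Figure D2:**
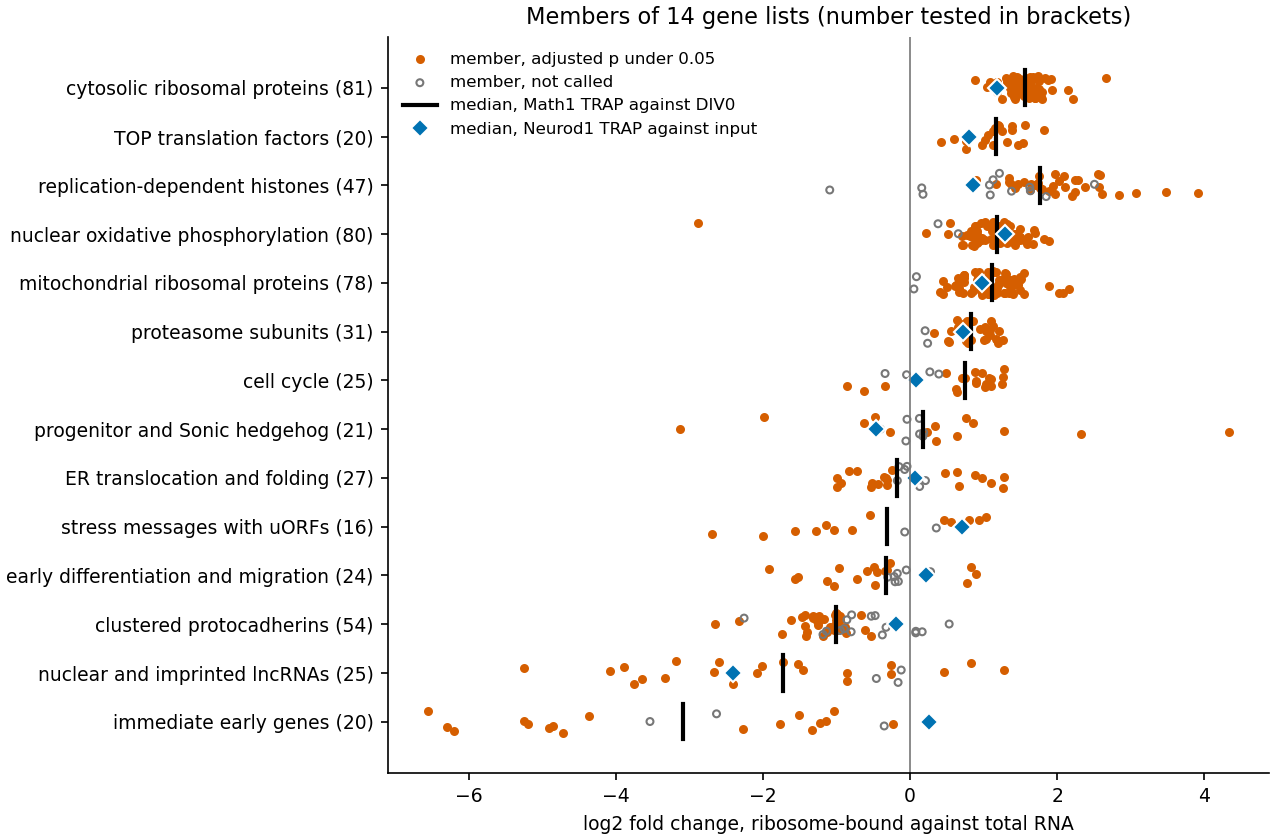
Log2 fold change of each measured member of 14 gene lists, Math1 TRAP against DIV0, filled where called and open where not, with the list's median as a bar. Diamonds give the median of the same list in Neurod1 TRAP against input. All ribosomal protein genes lie to the right of 0, while immediate early genes lie to its left with a median of -3.09 beside a diamond at 0.25.

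Short coding sequences were higher in the ribosome-bound fraction across the whole set of protein-coding genes. With 13939 genes in 5 equal groups by coding length, the median log2 fold change was 0.64 in the shortest group (114 to 783 nucleotides). It was 0.19, 0.03 and -0.12 in the next 3 groups and -0.50 in the longest (2595 nucleotides and more). In the shortest group 57.7% of genes were higher and 17.3% lower, and in the longest 12% were higher and 55.9% lower. Spearman's rho across these genes was -0.37 for the length of the whole transcript, -0.35 for coding length and -0.23 for the number of exons. It was -0.20 for the length of the 3′ untranslated region, -0.10 for the 5′ untranslated region and 0.13 for the percentage of G and C. These are descriptions across genes, which share libraries and are not independent. The lists above are rich in short genes: 70 of 81 cytosolic ribosomal proteins, 56 of 78 mitochondrial ones and 64 of 80 oxidative phosphorylation genes fall in the shortest group. Their medians there were 1.59, 1.24 and 1.25, above the 0.64 of all genes of that group. Neurod1 TRAP against input had nearly the same course, from 0.60 in the shortest to -0.52 in the longest group. RNA integrity and fragment length of the libraries were not analysed here, and their part in the relation with length was not tested.

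**Figure D3:**
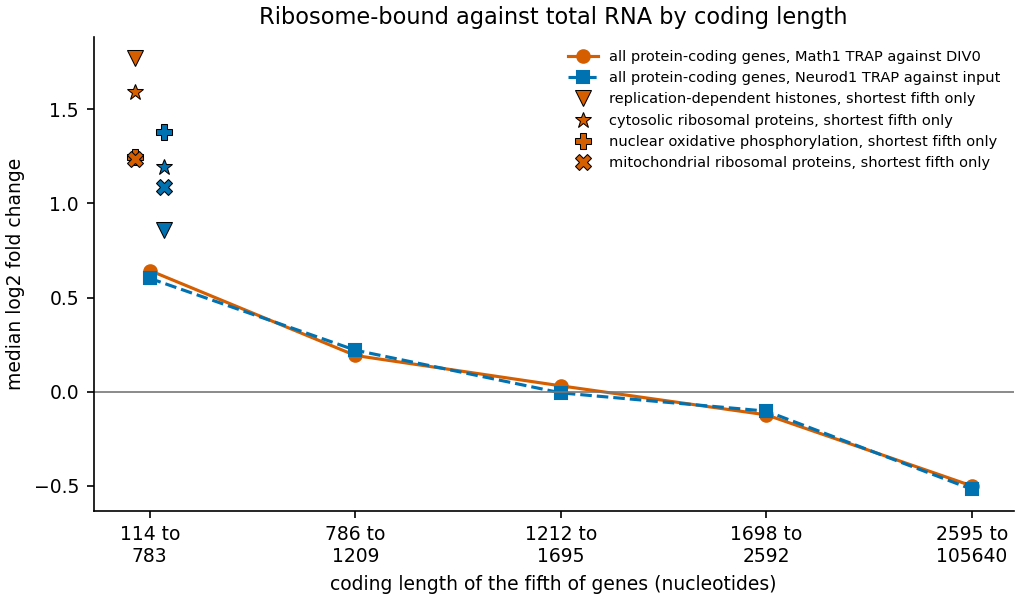
Median log2 fold change of ribosome-bound against total RNA for protein-coding genes in 5 equal groups by coding length, for Math1 TRAP against DIV0 (orange) and Neurod1 TRAP against input (blue). Single symbols give the median of 4 lists over their members in the shortest group. Both lines fall from about 0.6 to about -0.5, and the 4 lists lie above the lines at the left.

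Histone messages made during DNA replication and most cell cycle genes were higher in Math1 TRAP. Of 47 replication-dependent histone genes tested 35 were higher and the other 12 were not called, with a median of 1.77, and all 47 fall in the shortest group by coding length. H2ac11, an H2A gene, was at 56.5, 67.5, 70.7 and 77.2 CPM against 12.9 and 15.7 CPM, and H2bc21, an H2B gene, at 21.7, 23.1, 21.2 and 20.9 CPM against 8.67 and 8.01 CPM. Neither overlapped. These genes are low and near-identical to each other, so single values are uncertain, and the count of higher members was 19 without DIV0 replicate 1, 18 without DIV0 replicate 2 and 25 with the DIV0 libraries summed. With a minimum of 5 CPM in 2 libraries as the filter, 9 members were called higher. Histone messages of this class mostly lack a poly(A) tail, and the libraries were made from polyadenylated RNA.

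Of 25 cell cycle genes 17 were higher and 3 lower, with a median of 0.75. Mcm2 and Mcm6 of the replicative helicase rose by 1.25 and 1.11, and the mitotic genes Birc5, Ccnb2, Plk1 and Aurka by 1.27, 1.27, 1.10 and 1.07. Plk1, a mitotic kinase, was at 160, 163, 121 and 138 CPM against 63.6 and 68.6 CPM. The 3 lower members were Mki67 and the kinetochore motor and scaffold genes Cenpe and Cenpf. Their coding lengths were 9534, 7416 and 8994 nucleotides, all in the longest group of the 5. Lengths of the other members of this list are not compared here, and the part of length was not tested. Mki67, the proliferation antigen, was at 649, 660, 512 and 566 CPM in Math1 TRAP against 1067 and 1045 CPM in DIV0, a log2 fold change of -0.86 ± 0.10 (adjusted p = 0.000126). All 4 Math1 TRAP libraries lay below both DIV0 libraries, the reverse of Plk1.

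Genes of the granule progenitor state and of Sonic hedgehog signalling, the mitogen pathway of these cells, did not share a direction. Of 21 measured 9 were higher and 5 lower, with a median of 0.18. The counts were 5 higher and 3 lower without DIV0 replicate 2, and 3 lower without DIV0 replicate 1. After Atoh1 the largest rise was in Ccnd1, a cyclin D gene and target of the pathway, at 366, 447, 228 and 246 CPM in Math1 TRAP against 62.6 and 61.5 CPM in DIV0 (2.33 ± 0.27, adjusted p = 0.000101). As with Atoh1, libraries 1 and 2 were the highest and none overlapped. Barhl1, a homeobox gene of the lineage, was at 883, 1006, 907 and 974 CPM against 375 and 384 CPM, and Ccnd2, the other cyclin D gene of the list, rose by 0.85. The target Mycn rose by 0.76, a call lost without DIV0 replicate 2 (adjusted p = 0.0514), and the effector Gli2 by 0.63. Gli1, the most used readout of the pathway, was at 83.6, 92.5, 70.1 and 75.4 CPM against 71.5 and 71.8 CPM and was not called. The receptor Ptch1, itself a target, fell by 0.62 from 229 and 234 CPM to 146, 159, 151 and 163 CPM. Hhip, which binds the ligand at the cell surface and is also known from blood vessels, fell by 3.13 ± 0.25 from 23.3 and 22.6 CPM to 2.97, 1.70, 2.52 and 3.95 CPM.

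Most genes of early differentiation and migration that were called were lower in Math1 TRAP. Of 24 measured 14 were lower and 3 higher, with a median of -0.33, and 8 were lower without DIV0 replicate 1 and also with the DIV0 libraries summed. The netrin receptors Unc5c and Dcc fell by 1.91 and 0.96. Unc5c was at 105, 103, 137 and 102 CPM against 411 and 409 CPM, and Dcc at 204, 236, 214 and 214 CPM against 414 and 409 CPM. Cntn2, the axonal adhesion molecule TAG1 of cells that have just left the cycle, was at 311, 259, 491 and 443 CPM against 1080 and 1091 CPM. None overlapped. The higher members were the neuronal tubulin genes Tubb3 and Tubb2b (0.90 and 0.83) and Stmn2, a microtubule regulator (0.77). Their coding lengths were 1353, 1338 and 540 nucleotides, against 2853 for Unc5c, 4344 for Dcc and 3123 for Cntn2. These are 3 of the 14 lower members, and Cntn2 was named after its values were seen. Lengths of the other lower members are not set out here, so no relation with length can be read from these genes. The part of length was not tested. Both groups come from progenitor preparations, and in such bulk samples fewer cells of a type and less RNA per cell cannot be told apart.

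Of 19 mature granule cell genes tested 5 were higher, 4 lower and 10 not called. With either pair of Math1 TRAP libraries alone 8 were higher, in fits that leave out the spread between the pairs. Cbln1, a secreted organizer of parallel fibre synapses, was at 382, 349, 434 and 370 CPM against 104 and 114 CPM (1.78 ± 0.11, adjusted p = 6.67e-06). Grin2c, an NMDA receptor subunit, rose by 3.41 ± 0.28 from 1.25 and 1.06 CPM to 15.3, 14.5, 10.4 and 9.91 CPM. Among the 4 lower members, Fat2 fell by 1.67 ± 0.16 from 144 and 149 CPM to 50.8, 34.7, 56.5 and 47.4 CPM. Car4 fell by 2.33 ± 0.30 from 7.36 and 5.19 CPM to 1.35, 0.866, 1.54 and 1.45 CPM. Gabra6, the GABA-A receptor subunit that marks mature granule cells, was at 3.57 and 1.77 CPM in Math1 TRAP libraries 1 and 2 and at 0 in libraries 3 and 4, with 0.0522 CPM and 0 in DIV0. It was not called (adjusted p = 0.0504). Slc17a7, the vesicular glutamate transporter of mature granule cells, overlapped between the groups. The Polycomb methyltransferase genes that the series is about moved apart: Ezh2 was at 260, 268, 174 and 189 CPM against 150 and 143 CPM (0.56 ± 0.17, adjusted p = 0.0182). Its call was lost with library size scaling (0.34, adjusted p = 0.0804) and without DIV0 replicate 1 or 2 (adjusted p = 0.0633 and 0.11). Ezh1 was at 26.4, 24.6, 26.4 and 28.5 CPM against 39.9 and 37.1 CPM and fell by 0.58 ± 0.10.

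Immediate early genes, which are switched on within minutes by activity or stress and whose messages are short-lived, were far lower in Math1 TRAP. Of 20 measured 17 were lower and the other 3 were not called (median log2 fold change -3.09). In 19 of them all 4 Math1 TRAP libraries lay below both DIV0 libraries, where 38.4% of all genes did. Nr4a1, a nuclear receptor, was at 2.70, 1.84, 2.77 and 3.46 CPM against 65.4 and 68.4 CPM (-4.73 ± 0.18, adjusted p = 1.12e-06). Atf3, a stress-induced transcription factor, was at 0.555, 0.277, 1.05 and 1.53 CPM against 55.2 and 57.0 CPM (-6.30 ± 0.34). Fosb was at 0.278, 0.0693, 3.20 and 3.38 CPM against 123 and 128 CPM. The Math1 TRAP pairs stood apart most in Fos, with 3.29 and 1.87 CPM in libraries 1 and 2, 47.8 and 41.0 CPM in 3 and 4, and 253 and 257 CPM in DIV0. Fos was not called (adjusted p = 0.0626). Its fall was 6.65 with Math1 TRAP libraries 1 and 2 only and 2.56 with libraries 3 and 4 only. Fits to 1 pair leave out the spread between the pairs, so their p-values are not given. Without Math1 TRAP replicate 2 Fos was called (adjusted p = 0.0383). Egr1 had the same order, with 2.50, 2.70, 85.6 and 101 CPM against 274 and 290 CPM. The time each preparation took before lysis is not given in the sources used here, and its part in these levels was not tested.

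Stress genes whose translation depends on upstream open reading frames did not share a direction. Of 16 measured 8 were lower and 6 higher, where 33.4% of all genes tested were lower and 33.2% higher. The lower ones included genes of the integrated stress response: Trib3, a pseudokinase, was at 0.674, 0.416, 0.554 and 0.483 CPM against 3.34 and 3.40 CPM, and Ppp1r15a, which resets the response, at 13.4, 14.5, 22.1 and 18.5 CPM against 45.9 and 51.9 CPM. Atf4, its central transcription factor, was at 142, 136, 252 and 272 CPM against 400 and 402 CPM (-1.04 ± 0.27, adjusted p = 0.00829), a call lost with no filter on low counts (adjusted p = 0.0568). As for Fos, libraries 3 and 4 lay nearer to DIV0. The higher ones were Slc35a4 and 5 genes of polyamine synthesis and its control, Amd1 (0.94), Odc1 (0.70), Oaz1 (1.04), Oaz2 (0.55) and Azin1 (0.46). Heat shock genes showed a like division: 9 of 15 were higher and 5 lower. The abundant chaperone genes Hspa8 and Hsp90ab1 rose by 1.13 and 0.84, with Hspa8 at 3340, 3420, 3104 and 3264 CPM against 1451 and 1460 CPM. The small, inducible Hspb1 fell by 3.13 ± 0.44 to 0.357, 0.242, 0.738 and 0.242 CPM from 3.03 and 3.62 CPM.

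Of 27 messages for endoplasmic reticulum translocation and folding 8 were higher and 13 lower, with a median of -0.17. The 13 became 7 without DIV0 replicate 1 and 8 without DIV0 replicate 2. Of all genes tested 33.2% were higher and 33.4% lower, so these counts do not set the list apart. Ostc of the oligosaccharyltransferase rose by 0.89 ± 0.08, to 91.0, 91.7, 87.4 and 85.2 CPM from 46.2 and 47.0 CPM. Sec63 of the translocon, the chaperone gene Hspa5 and Calr fell by 1.00, 1.00 and 0.94. Of 26 genes of SR splicing factors and Clk kinases 12 were lower and 9 higher. Son and Srrm2, large speckle proteins, were at 278 to 319 CPM and 322 to 388 CPM in Math1 TRAP against 740 to 755 CPM and 865 to 872 CPM in DIV0. Clk1, known to keep intron-containing transcripts in the nucleus, fell by 1.66 ± 0.10, from 184 and 178 CPM to 64.6, 60.8, 59.8 and 49.6 CPM. Srsf9, a small SR protein, rose by 1.43 ± 0.12. Clustered protocadherins, adhesion molecules that share constant exons within a cluster, were lower in 38 of 54, with a median of -1.01 and the other 16 not called. That count was 25 without DIV0 replicate 1 and 23 without DIV0 replicate 2. Because their exons are shared, the split of reads among members is uncertain.

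Markers of vascular, microglial, oligodendrocyte and interneuron cells, which should not carry the tag, were mostly lower in Math1 TRAP. Those of Purkinje cells and unipolar brush cells were not, and astrocyte markers were either lower or not called with all libraries. Of 15 vascular and meningeal markers all 15 were lower (median -3.49), of 11 microglial markers 10 (median -3.47), of 12 oligodendrocyte markers 11 (median -1.65) and of 10 interneuron markers 8 (median -2.53). The other 2 interneuron markers, Lhx1 and Pvalb, were higher by 0.52 and 1.30, calls that were lost with either DIV0 library left out (adjusted p = 0.0517 and 0.0573 for Lhx1, 0.096 and 0.19 for Pvalb). The Pvalb call was also lost without Math1 TRAP replicate 1 or 2 (adjusted p = 0.0643 and 0.0713). Bergmann glia and astrocyte markers were lower in 6 of 15 and higher in 0, the other 9 not called. Of all genes tested 33.4% were lower and 33.2% higher. The median of these markers was -0.76, against -0.03 for all genes tested. The summed level of the vascular list was 109, 77.1, 144 and 95.5 CPM in Math1 TRAP against 1064 and 1082 CPM in DIV0. That of the 12 microglial genes was 14.8, 15.3, 12.3 and 12.1 CPM against 98.0 and 94.7 CPM. The astrocyte sum was 676, 622, 971 and 865 CPM against 1120 and 1119 CPM, so all 3 sums were lower in Math1 TRAP without overlap. Among single genes, the endothelial cadherin Cdh5 was at 5.23, 4.64, 6.83 and 4.67 CPM against 57.4 and 60.4 CPM, and Csf1r, the growth factor receptor of microglia, at 1.43, 1.25, 1.23 and 1.45 CPM against 22.9 and 22.4 CPM. Slc1a2, an astrocyte glutamate transporter, fell less, from 170 and 163 CPM to 69.4, 78.2, 87.3 and 86.0 CPM. Hba-a2, a globin gene of red cells with a near-identical copy, was at 1.47, 2.39, 1.54 and 1.05 CPM against 43.6 and 41.6 CPM. With Math1 TRAP libraries 1 and 2 only 10 astrocyte markers were lower and 1 higher. With libraries 3 and 4 only 8 were lower and 3 higher: Gdf10 by 1.05, Fabp7 by 0.83 and Aldh1l1 by 0.53. Fits to 1 pair leave out the spread between the pairs, so these calls do not outweigh those with all libraries. None of the microglial, vascular or astrocyte markers was at 0 in all libraries of a group. These other cells' part in the comparison as a whole was not tested.

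**Figure D4:**
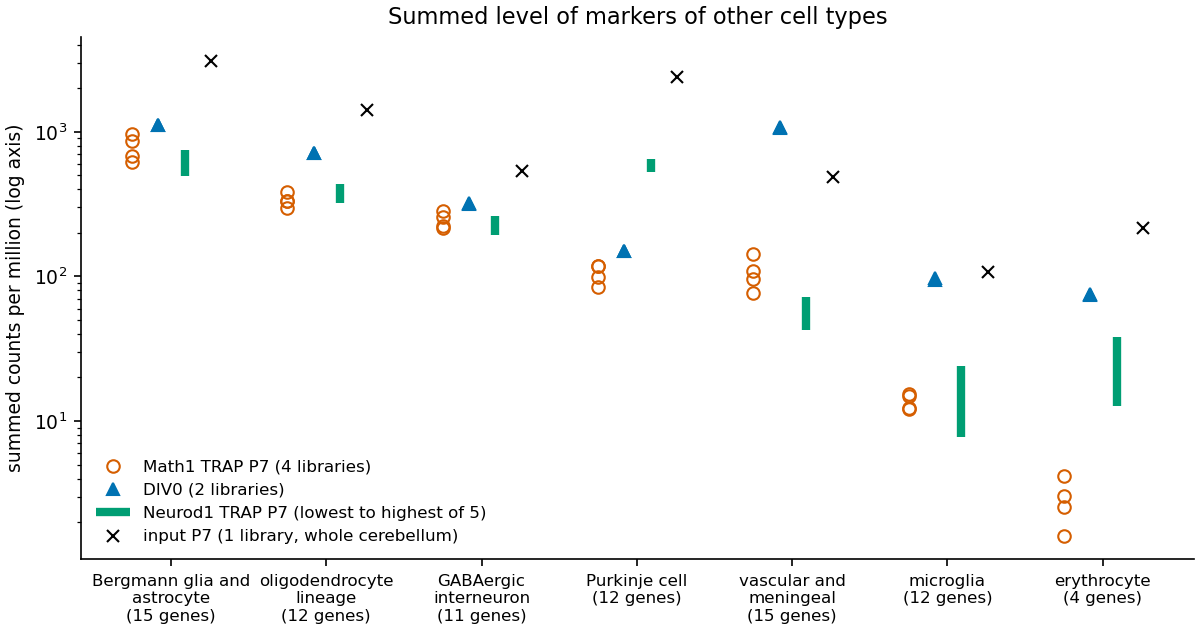
Summed level in CPM (log axis) of the markers of 7 cell types in the Math1 TRAP libraries (circles), the DIV0 libraries (triangles), the Neurod1 TRAP libraries of postnatal day 7 (bar from lowest to highest) and the input of that age (cross). The vascular sum is 1064 and 1082 CPM in DIV0 and 77.1 to 144 CPM in Math1 TRAP.

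Purkinje cell markers went both ways: of 10 tested 4 were higher and 4 lower. Calb1, a calcium buffer, was at 9.83, 4.02, 4.74 and 2.66 CPM against 0.731 and 0.366 CPM (3.29 ± 0.62, adjusted p = 0.00151), and Pcp4, a calmodulin regulator, at 36, 26.3, 40.2 and 30.5 CPM against 5.85 and 5.19 CPM. Itpr1, Rora and Gad1 were lower, by 1.24, 2.15 and 2.65 on the log2 scale. Skor2, an early Purkinje cell regulator, was at 0 in DIV0. Without DIV0 replicate 1 the higher members numbered 2, since Pcp2 and Car8 lost their calls. Of 6 unipolar brush cell markers Eomes, the T-box factor of these cells, was higher at 50.4, 41.4, 38.3 and 42.2 CPM against 20.7 and 21.3 CPM.

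Of 5 sex-linked genes 3 were lower, and of 7 genes known from earlier results of these data to vary by mouse line 3 were higher and 1 lower. Xist, the nuclear RNA of the inactive X chromosome, was at 33.5, 53.8, 40.9 and 32.7 CPM against 650 and 660 CPM (-4.06 ± 0.18), and Ddx3y, on the Y chromosome, at 45.6, 24.2, 30.8 and 21.3 CPM against 69.9 and 70.1 CPM. The call for Ddx3y was lost in the joint fit of 24 libraries (adjusted p = 0.566). It was also lost with the replicate block (adjusted p = 0.193), where the effect rests on Math1 TRAP libraries 1 and 2 against DIV0. Xist and Ddx3y were found in every library of both groups, so each library held RNA of both sexes. Math1 TRAP library 1 was the highest of its group for Ddx3y and for Eif2s3y (48.3, 24.8, 34.4 and 26 CPM against 31.6 and 28.7 CPM), which was not called. Eno1b, known from the rest of the series to vary by line, was at 0.833, 0.762, 0.369 and 0 CPM against 7.05 and 5.26 CPM, with a mean of 224 CPM in Neurod1 TRAP at postnatal day 7. Mndal and Ifi203, neighbouring interferon-inducible genes, were at 33.5 to 86.3 CPM and 27.1 to 100 CPM in Math1 TRAP and at 45.5 to 48.3 CPM and 54.7 to 55.7 CPM in DIV0. Both overlapped between the groups, were higher in Math1 TRAP libraries 3 and 4 than in 1 and 2, and had means of 0.662 and 1.84 CPM in Neurod1 TRAP at that age.

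Among genes that averaged 10 CPM or more in the higher group, the largest rises after Atoh1 included Phyhip, Rasd2, Grin2c, Cyp11a1, Amer3 and Plekho2, with log2 fold changes of 2.71 to 4.03. Phyhip was at 20.3, 7.17, 13.8 and 10.2 CPM against 0.574 and 0.914 CPM. Rasd2, a small GTPase, was at 28.3, 41.9, 27.6 and 30.9 CPM against 2.14 and 2.30 CPM. Plekho2 was the most abundant of them, at 292, 355, 278 and 298 CPM against 46.1 and 44.7 CPM (2.71 ± 0.12). That the groups did not overlap was a condition of the choice, and of the genes named here only Atoh1 is in the progenitor list. Cyp11a1 makes pregnenolone from cholesterol, and it was at 20.6, 18.5, 14.6 and 15.6 CPM against 2.35 and 1.68 CPM.

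Among genes of the same level the largest falls included Cd14, Ptgs2, Plaur, Thbs1, Il1a, Ccn1 and Icam1. Cd14, the lipopolysaccharide co-receptor of myeloid cells, had 1 count in Math1 TRAP against 855 in DIV0, a ratio of 1521 for the libraries' totals with a 95% counting interval of 273 to 60086. Ptgs2 (cyclooxygenase 2) had 2 counts against 1018, a ratio of 906 (251 to 7478). Plaur, the urokinase receptor, was at 0, 0.104, 0.0615 and 0.0806 CPM against 10.8 and 11.9 CPM. Thbs1 (thrombospondin 1) and Ccn1, a matricellular protein, were at 56.6 to 89.2 CPM in DIV0 and at 0.123 to 2.15 CPM in Math1 TRAP. Il1a, a cytokine of myeloid cells, was at 11.8 and 11.8 CPM in DIV0 and at 0 in Math1 TRAP libraries 2, 3 and 4, and Icam1 at 56.4 and 59.0 CPM against at most 1.03 CPM. That the groups did not overlap was a condition for choosing these genes. These genes were lower in Math1 TRAP, as were the vascular and microglial sums and most of the immediate early genes given above. The part of other cells in the result was not tested.

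The second comparison of ribosome-bound with total RNA, Neurod1 TRAP against input, gave a largely similar order of genes. Over the 14804 genes tested in both, Pearson's r of the log2 fold changes was 0.66 and Spearman's rho 0.68, a description across genes, which are not independent replicates. Of the genes higher in Math1 TRAP 3595 were also higher in Neurod1 TRAP, which is 73.0% of the first list and 64.3% of the second. Of the lower genes 3573 were lower in both, 72.3% and 60.6%. These shares are read against all 14804 genes, of which 5592 were higher and 5899 lower in Neurod1 TRAP. In Math1 TRAP 33.2% of them were higher and 33.4% lower. Called in opposite directions were 452 and 427 genes. All 81 cytosolic ribosomal proteins were higher in both, with a median of 1.19 in Neurod1 TRAP, and oxidative phosphorylation genes had 1.29. Malat1 fell by 5.03 ± 0.28 and Miat by 4.25 ± 0.15 there.

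**Figure D5:**
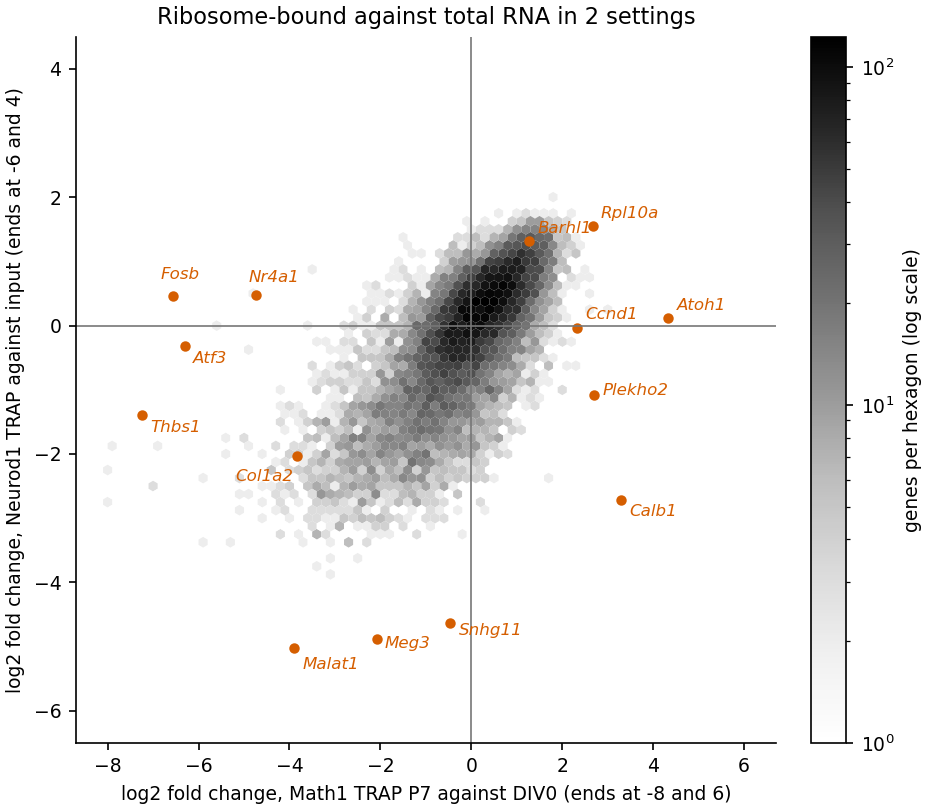
Log2 fold change of Math1 TRAP against DIV0 (x axis) and of Neurod1 TRAP against input (y axis) for the genes tested in both, as hexagons shaded by the number of genes, with 14 genes named. Most genes lie along a rising band, while Nr4a1, Fosb and Atf3 lie far to the left near 0 on the y axis and Calb1 lies at the lower right.

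The difference between the effects was tested directly, as Math1 TRAP minus DIV0 less Neurod1 TRAP minus input. Of 16354 genes 7044 (43.1%) were called: 3911 (23.9%) had the higher effect in the Math1 line and 3133 (19.2%) the lower, with 2579 and 2044 when the second effect came from postnatal day 7 alone. With library size scaling 69.5% of the calls were higher, where TMM gave 55.5%. The Neurod1 effect itself had 34.8% of genes higher and 41.7% lower (76.6% called), and 23.8% of its calls were higher with library size scaling, where TMM gave 45.5%. Of 20 immediate early genes 19 had a lower effect in the Math1 line, with a median difference of -2.34, and their median in Neurod1 TRAP against input was 0.25. Nr4a1 differed by -5.17 ± 0.47 (adjusted p = 1.83e-08), Fosb by -6.92 ± 0.84 and Atf3 by -5.90 ± 0.52. Of the 16 stress genes 10 had a lower effect, among them Atf4 (-1.80 ± 0.24), which was 0.80 higher than input in the Neurod1 line. Mir22hg was also higher than input there (0.60) and differed by -4.20 ± 0.21.

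Many progenitor, astrocyte and Purkinje genes differed the other way, while 9 of 12 oligodendrocyte markers were not called in the difference. Of 12 microglial markers 2 had a lower effect. Of 15 vascular and meningeal markers 8 had a lower effect and 0 a higher one (median difference -0.98). Of 4 erythrocyte genes 3 had a lower effect and 1 a higher one. Atoh1 differed by 4.26 ± 0.40 (adjusted p = 2.41e-08) and Ccnd1 by 2.41 ± 0.26, and 11 of 21 progenitor genes had a higher effect and 4 a lower one. Of 24 early differentiation genes 15 had a lower effect. All 15 astrocyte markers had a higher effect, with a median difference of 1.68, where the medians were -2.07 in Neurod1 TRAP against input and -0.76 in Math1 TRAP against DIV0. Of 12 Purkinje markers 9 had a higher effect, among them Calb1 with 6.11 and Skor2, which had no count in DIV0, and the Purkinje sum was 2409 CPM in the input of postnatal day 7 and 150 and 149 CPM in DIV0. Cytosolic ribosomal proteins had a higher effect in 24 of 81, among them Rpl10a (1.16 ± 0.24) and Rpl36a (1.10 ± 0.26). Meg3, at 752 CPM in the input of postnatal day 7, differed by 2.85 ± 0.40. Total RNA was of isolated cells in one comparison and of whole cerebellum in the other, so line, starting tissue and ribosome binding cannot be told apart in these differences.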

How the data were processed

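Polyadenylated RNA of mouse cerebellum and of isolated granule progenitors had been sequenced. The authors deposited 1 table of estimated counts per gene, as whole numbers, for all 39 libraries. Per the submitters' processing notes Salmon 0.8.2 and the mm10 build were used, and how transcripts were summed to genes is not given in the sources used here. The values came as whole numbers, so no rounding was needed, and no molecular identifiers are mentioned.

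Of 24100 gene identifiers 24045 were matched to a symbol (RefSeq, GRCm38.p6) and 55 were not. Coding and transcript lengths came from GENCODE M21. The 6 libraries of Math1 TRAP and DIV0 were fitted alone with edgeR 4.0.16 (R 4.3.3): genes kept by filterByExpr (minimum count 10, minimum total 15), TMM scaling, a robust quasi-likelihood fit and Benjamini-Hochberg adjustment over all genes tested, with calls at an adjusted p under 0.05. Neurod1 TRAP against input, and the difference between both effects, came from 1 joint fit of 24 libraries with age as a term. Alternatives used other scalings, filters, DESeq2 1.42.0, a minimum fold, a replicate block, fewer libraries and the 2 DIV0 libraries summed. The procedure was tested on simulated data. Tables and figures used Python 3.11.15 with pandas 2.3.3, scipy 1.17.1 and matplotlib 3.10.9.

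The genes and lists were chosen with earlier results of these data known. Genes were named by this rule: the promoter genes, tagged protein and reference transcripts, up to 4 members of each list by adjusted p, the measured cell type and line-linked markers, and the 8 largest rises, 8 largest falls and 5 largest differences each way among called genes with a symbol of their own, a mean of at least 10 CPM in the higher group and no overlap. Other list members were named after their values were seen, and some genes that the rule names are not reported here. The list of mitochondrially encoded genes had no gene in the table. Intervals on ratios of counts are exact, at 95%, and cover counting error only.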

Additional observations from a re-analysis of the deposited data

Results flagged for a closer look

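Of 222 named genes whose 4 Math1 TRAP libraries were screened, 10 had 1 library far from the other 3, and chance alone marks about 1 in 20. Library 1 stood apart in Firre (13 CPM), Tomm6 (140 CPM), Slc1a6 (1.98 CPM), Rit2 (2.85 CPM), H4c9 (21.6 CPM) and Il1a (0.278 CPM). Library 3 stood apart in Unc5c (137 CPM), Tyrobp (0.0615 CPM) and Cldn5 (15 CPM), and library 2 in Cd14 (0.0346 CPM, which is 1 count).

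The ribosome-bound against total effect differed between the Math1 and the Neurod1 line by the test of the difference itself. The effect was higher in the Math1 line for 3911 genes and lower for 3133. On the log2 scale it was higher by 4.26 for Atoh1, 0.71 for Ezh2, 1.16 for Rpl10a, 2.85 for Meg3, 6.11 for Calb1, 5.18 for Pcp2 and 4.62 for Slc6a7. The differences were -0.82 for Neurod1, -0.93 for Ezh1, -8.21 for Cd14, -7.97 for Plaur, -6.92 for Fosb, -6.59 for Jaml and -6.52 for Ptgs2. Slc6a7 rests on 1 count in DIV0, and Jaml had 0 counts in Math1 TRAP and 10 in DIV0, so that its fitted difference is no bound. The call for Ezh2 was lost with postnatal day 7 libraries only (0.29, adjusted p = 0.384), without the input of postnatal day 21 (0.45, adjusted p = 0.0514) and without DIV0 replicate 2 (0.67, adjusted p = 0.0525), and the call for Ptgs2 was lost without the input of postnatal day 7 (adjusted p = 0.102). Starting tissue and line differ together between the comparisons and cannot be told apart here.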

How the results depend on the processing

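Library size scaling kept the number of calls (9859 for Math1 TRAP against DIV0 and 12720 for Neurod1 TRAP against input) but lowered the share of higher calls to 37.9% and 23.8%, and 351 calls of Neurod1 TRAP against input turned their sign. A tested minimum fold of 1.5 left 2449 genes higher and 2930 lower in Math1 TRAP. Library size scaling left 1154 genes higher with a fold of at least 2, and 3029 higher in Neurod1 TRAP against input. A minimum of 5 CPM, which tests fewer genes, left 1774 lower with a fold of at least 2. With postnatal day 7 libraries only, Neurod1 TRAP had 3903 genes lower than input, and the difference between the effects had 2579 higher and 2044 lower. Leaving out 1 library at a time gave 3565 to 4925 genes higher and 3452 to 5236 lower in Math1 TRAP, and DESeq2 called 9682 genes where edgeR called 9862. Replicate numbers 1 and 2 are shared by both groups but did not pair the samples (correlation of deviations -0.0026). Numbers 3 and 4 occur in Math1 TRAP only, so the effect with the replicate block rests on Math1 TRAP libraries 1 and 2 against DIV0. With this block 11320 genes were called, 5463 of them higher. The sign turned for Tnc with the replicate block (0.42) and with Math1 TRAP libraries 1 and 2 only (0.48), settings whose effects rest on the same libraries. It turned for Ifi203 under the same settings (-0.86 and -0.80) and for Mndal with the block (-0.29), and none of these 3 genes was called in the full comparison. Of the alternative values for single genes 4048 kept their side of the threshold and their direction, 80 gained a call, 104 lost one and 5 turned. Of the counts for lists 903 stayed within 1.5 times and 83 did not. The cause was not tested. With 2 DIV0 libraries that differ by little more than counting noise, the spread of that group is the least known.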
